A study of Mus musculus with 2 samples.

Results

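Mature Ccr7-positive dendritic cells were examined in single-cell RNA-seq of mouse livers in which some hepatocytes carried an oncogenic RAS transgene. The cells were chosen by their measured expression. A barcode (1 droplet, taken as 1 cell) was kept if it had at least 500 genes, at least 1000 gene UMIs (unique molecular identifiers, each counting 1 captured transcript) and under 20% mitochondrial UMIs. It entered the mature gate if the MHC class II genes H2-Aa, H2-Ab1, H2-Eb1 and Cd74 made up at least 1% of its UMIs, if at least 3 of the 5 genes Ccr7, Fscn1, Ccl22, Il4i1 and Il12b had a UMI, and if the B cell genes Cd79a and Cd79b had at most 1 UMI between them. The gate held 391 of 13151 barcodes, which were 3.83% of the 10220 kept barcodes and 40.0% of the 977 barcodes that passed the MHC class II limit.

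Dendritic cells sample antigen in tissue and, on maturation, leave through the lymph for the draining node, where they present that antigen to T cells. The receptor CCR7 guides this migration along CCL19 and CCL21 gradients, and the actin-bundling protein fascin (Fscn1) shapes the dendrites. Maturation runs through NF-kB signalling and brings costimulatory ligands, IL-12, chemokines for T cells and a set of T cell inhibitors, while uptake and sensing of antigen decline. Cells of this kind arise from both classes of conventional dendritic cell (cDC), the cross-presenting cDC1 and the cDC2, and have been described in normal tissue and in tumours.

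The 3 mice were C57BL/6 (BL6 in the labels), 6 to 8 weeks old at hydrodynamic tail-vein injection of 25 µg of a transposon vector with a transposase plasmid, which delivers DNA mainly to hepatocytes. In 2 mice the transposon carried NRAS(G12V), a constitutively active RAS, and in 1 mouse NRAS(G12V/D38A), whose effector binding is lost, in both cases under the CAGGS promoter and followed by IRES-mVenus. All livers were taken on day 6, each mouse received its own hashtag antibody on its cells, which were sorted as live mVenus-positive cells and pooled for 10x 3′ sequencing, so the mice differ only by hashtag within 1 gene library. The deposited sheet gives hashtag 1 to the D38A mouse and hashtags 2 and 3 to the G12V mice, whereas the methods of the study give hashtags 1 and 2 to G12V and hashtag 3 to D38A. Mice are therefore named here by hashtag, and only hashtag 2 carries the same genotype in both sources.

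Of the 13151 barcodes, 13141 were also in the hashtag library. Among the 391 mature cells, 141 were called for hashtag 1, 227 for hashtag 2 and 6 for hashtag 3, while 16 were called as doublets of hashtags and 1 as negative. The mature cells had a median of 9638 UMIs (1125 to 74042) and 1943 genes. The 330 resting cDCs used for comparison had 10461 UMIs and 2263 genes, and the 9243 kept barcodes below the MHC class II limit, which include the hepatocytes, had 3760 UMIs and 1391 genes. Levels are given as CPM, the UMIs of a gene per 1000000 gene UMIs of the summed cells, for hashtag 1 and then hashtag 2. All intervals cover counting error only.

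The 5 genes of the gate were unequally found in the mature cells. Ccr7 had a UMI in 98.0% of them, Ccl22, a chemokine for CCR4-bearing T cells, in 94.9%, Il12b, the shared p40 chain of IL-12 and IL-23, in 93.1%, and Il4i1, a secreted amino acid oxidase that restrains T cells, in 79.5%. Fscn1 was found in only 171 of the 391 cells (43.7%). Free RNA also gives UMIs, and in the barcodes below the MHC class II limit, at their lower depth, the shares were 2.11% for Ccr7, 2.32% for Fscn1, 1.59% for Ccl22, 0.682% for Il4i1 and 0.692% for Il12b. After thinning each barcode to 2000 UMIs, Ccr7 was left in 85.7% of mature cells, 3.11% of resting cDCs and 0.910% of the other barcodes, and Fscn1 in 27.3%, 0% and 1.28%. These levels fixed the gate and are given with no test.

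**Figure D1:**
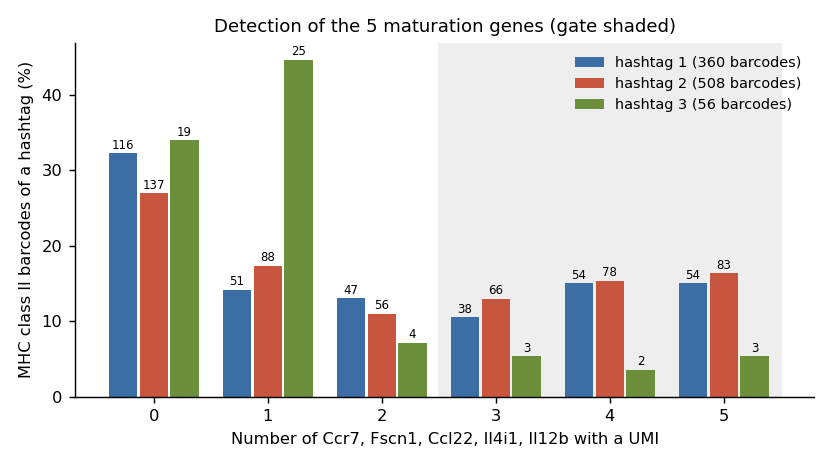
The x axis gives how many of Ccr7, Fscn1, Ccl22, Il4i1 and Il12b had a UMI in a barcode that passed the MHC class II limit, the y axis the percentage of such barcodes of each hashtag, with the number of barcodes above each bar and the gate shaded. Hashtags 1 and 2 had barcodes at every number, with 54 and 83 at all 5 genes, and hashtag 3 had 3 there.

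The limit of 3 genes cut through a continuous range. Among all 977 MHC class II barcodes, 290 had none of the 5 genes, 176 had 1, 113 had 2, 111 had 3, 138 had 4 and 149 had all 5. The 109 cells just inside, with 3 genes, had 877 CPM of Ccr7, 964 of Ccl22, 842 of Il12b, 75.4 of Il4i1 and 4.39 of Fscn1. The 110 barcodes just outside, with 2 genes, had 498, 669, 161, 14.1 and 0 CPM of the same genes at a median of 10579.5 UMIs against 10019 inside. On the MHC class II side, the lowest mature cell had 1.00%, and 29 further barcodes with 3 or more of the genes lay between 0.156% and 0.985%. A further 7 were left out over the Cd79 limit.

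The label was checked against marker genes. Of its markers, Traf1 was the one the gate did not use. It was found in 95.7% of mature cells and in 1.74% of the shallower barcodes below the MHC class II limit. It was also found in 49.1% of resting cDCs and 41.6% of MHC class II barcodes with at most 1 of the 5 genes. After thinning to 2000 UMIs these 4 shares were 70.4%, 0.824%, 15.2% and 19.6%. The general cDC genes Flt3, the receptor for the growth factor of dendritic cells, and Itgax, which encodes CD11c, had a UMI in 42.2% and 59.1% of mature cells and in 0.314% and 0.422% of the other barcodes. The general cDC list as a whole was lower than in its comparison groups, at a sum of 569 CPM in mature cells, 1661 in resting cDCs, 1551 in MHC class II barcodes with at most 1 of the 5 genes and 48.05 in the barcodes below the MHC class II limit. None of its genes was called higher. Kit, Ptprc, Bcl11a, Plbd1 and Jaml, 5 of the 6 tested, were lower than in resting cDCs (median log2 fold change -1.71), and 6 of 9, Itgax among them, were lower than in the broader group (median -0.91). The defining Kupffer cell genes Clec4f and Vsig4, the B cell genes Ebf1 and Pax5, and the cDC2 genes Cd209a, Clec10a and Itgam had no UMI in the mature cells, which allows a UMI of each in up to 0.767% of cells and sets no limit on cells that express them. Against resting cDCs, the B cell gene Ms4a1 was called higher, also by DESeq2, and Ighm lower. Of 3 Kupffer cell genes tested there, Slc40a1 was higher, which DESeq2 did not call, Csf1r was lower and Timd4 was not called. Against MHC class II barcodes with at most 1 of the 5 genes, 4 of 5 B cell genes and 7 of 9 Kupffer cell genes tested were lower and none was higher. The Kupffer cell list summed to 38.8 CPM in mature cells, 669 in MHC class II barcodes with at most 1 of the 5 genes and 70.8 in resting cDCs, and the B cell list to 76.8, 544 and 138 CPM. The B cell list includes Cd79a and Cd79b, which the gate and the rule for resting cDCs limit and the group between them does not, and the rule for resting cDCs also limits Kupffer and plasmacytoid genes, so these sums are no check of the label. In the same order the monocyte and neutrophil list summed to 224, 792 and 719 CPM, the plasmacytoid list to 167, 377 and 166, the T and NK cell list to 59.3, 58.2 and 49.6, the sinusoidal endothelial list to 730, 613 and 606 and the stellate and cholangiocyte list to 880, 679 and 691 CPM. Most of the endothelial sum was Dnase1l3, a secreted DNase that dendritic cells also make, at 667 and 672 CPM against 509.9 and 469 CPM in resting cDCs.

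Comparisons were made with the mice as replicates, on UMIs summed per hashtag and gate for hashtags 1 and 2, since hashtag 3 had too few mature cells. The broad comparison group was the 466 MHC class II barcodes with at most 1 of the 5 genes. The close comparison group was the 330 resting cDCs among them, which had at least 2 UMI-bearing genes of 7 cDC markers and few or none of the macrophage, B cell and plasmacytoid genes. In both tests the mouse was a block, and with 2 pairs there was 1 residual degree of freedom, so that edgeR's quasi-likelihood test leans on the spread shared across genes. The gates divide cells of the same mice by measured expression, so an adjusted p says that another gene goes along with that division in both mice, and not that the cells form a type.

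Against the broad group, 8418 genes were tested, of which 1432 (17.0%) were higher and 1257 (14.9%) lower in mature cells at an adjusted p under 0.05. Against resting cDCs, 1384 of 7922 genes (17.5%) were higher and 1165 (14.7%) lower. Scaling by library size without TMM (trimmed mean of M values) moved the median of all genes to -0.19 and -0.15 on the log2 scale and turned the split to 992 higher and 1953 lower, and to 1024 and 1638. With the few mature cells of hashtag 3 as a partner mouse, 554 genes were called against the broad group without hashtag 1 and 385 without hashtag 2, and 490 and 357 against resting cDCs. Both comparisons use the same mature cells and the resting cDCs are part of the broad group, so they are not independent of each other. The gene lists were chosen with earlier results of these data known, so counts and medians per list may partly reflect that choice. Fold changes below are log2 values with their SE for mature cells over resting cDCs unless the broad group is named, and the median over all genes tested was 0.01 in each.

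The NF-kB pathway moved together. Of 20 tested genes of the list, 19 were higher than in resting cDCs and none was lower, with a median log2 fold change of 1.48, and 18 were higher than in the broad group, with a median of 1.33. Traf1, an adaptor that sustains signalling from TNF receptor family members, stood at 746 and 722 CPM in mature cells of hashtags 1 and 2 against 85.1 and 117 CPM in resting cDCs, which was 3.02 (SE 0.155, edgeR adjusted p = 7.63e-25). The non-canonical subunits were both higher. Relb stood at 295 and 326 CPM against 32.0 and 48.0 CPM, and Nfkb2, the precursor of its partner p52, at 98.4 and 102 CPM against 16.3 and 24.8 CPM. In each of these genes both mature values lay above both resting ones, and how many of all tested genes do so was not counted. Relb differed by 3.11 (SE 0.164) and Nfkb2 by 2.42 (SE 0.200), while the canonical Nfkb1 differed by 0.71 (SE 0.162), a call that DESeq2 did not make.

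The inhibitors of the pathway, which are among its own target genes, were higher as well. Nfkbia, which holds NF-kB in the cytoplasm, was at 1421 and 1518 CPM against 580.0 and 755 CPM, a difference of 1.31 (SE 0.137). Tnfaip3, the ubiquitin-editing enzyme A20, differed by 1.46 (SE 0.180), Tnip3, of the family of A20-binding proteins, by 2.83 (SE 0.181) and Birc2, the ubiquitin ligase cIAP1, by 2.68 (SE 0.178). Map3k14, the kinase of the non-canonical arm, differed by 1.5 (SE 0.190). Nfkbiz was the 1 tested gene without a call against resting cDCs, at 54.0 and 60.2 CPM against 51.1 and 73.9 CPM.

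Promoters of 4 genes of the list are shown because nearly all of its tested genes were higher together. The NF-kB consensus of 10 letters was searched on both strands in the RefSeq promoters (mouse build GRCm38.p6, 250 bases before to 50 bases after the start), and the capitals mark its matches. In the order below, Nfkb2 is at chr19:46304487-46304786 on the + strand, Tnip3 at chr6:65590148-65590447 on the + strand, Tnfaip3 at chr10:19015361-19015660 on the - strand and Traf1 at chr2:34961723-34962022 on the - strand.
Nfkb2: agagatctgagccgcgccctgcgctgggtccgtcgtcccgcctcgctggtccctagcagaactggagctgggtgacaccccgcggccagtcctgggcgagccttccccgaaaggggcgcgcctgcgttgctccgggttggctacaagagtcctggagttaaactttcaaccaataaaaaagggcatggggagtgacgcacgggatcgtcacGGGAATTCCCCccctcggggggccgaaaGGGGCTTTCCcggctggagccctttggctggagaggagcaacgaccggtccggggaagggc
Tnip3: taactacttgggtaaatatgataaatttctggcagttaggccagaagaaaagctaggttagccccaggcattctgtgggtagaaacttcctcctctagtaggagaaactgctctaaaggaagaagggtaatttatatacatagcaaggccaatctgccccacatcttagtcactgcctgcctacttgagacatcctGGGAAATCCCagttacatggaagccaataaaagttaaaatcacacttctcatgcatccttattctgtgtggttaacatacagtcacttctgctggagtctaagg
Tnfaip3: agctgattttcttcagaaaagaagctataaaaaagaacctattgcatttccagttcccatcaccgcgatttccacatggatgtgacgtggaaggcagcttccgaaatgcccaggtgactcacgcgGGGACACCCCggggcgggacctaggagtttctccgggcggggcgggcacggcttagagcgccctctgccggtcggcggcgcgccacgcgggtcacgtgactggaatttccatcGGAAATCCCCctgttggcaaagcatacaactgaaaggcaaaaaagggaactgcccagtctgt
Traf1: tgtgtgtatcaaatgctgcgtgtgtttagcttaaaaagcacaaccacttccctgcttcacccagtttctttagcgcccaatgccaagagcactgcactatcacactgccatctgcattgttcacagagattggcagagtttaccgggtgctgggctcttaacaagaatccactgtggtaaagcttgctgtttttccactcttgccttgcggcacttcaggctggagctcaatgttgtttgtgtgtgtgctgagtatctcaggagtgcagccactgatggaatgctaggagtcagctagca
The script found 3 matches in the promoter of Nfkb2, counting both strands and overlapping positions, 1 in Tnip3, 2 in Tnfaip3 and 0 in Traf1. Counted by gene, with a match in any of its promoters, at least 1 match was held by 9 of the 17 list genes with a RefSeq entry. By the same count it was held by 12.4% of the genes tested against resting cDCs, 16.4% of those called higher and 11.7% of those called lower. Counted by promoter, which is another unit, the share was 8.46% of all 32851. A match is a description of the letters and does not show binding.

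**Figure D2:**
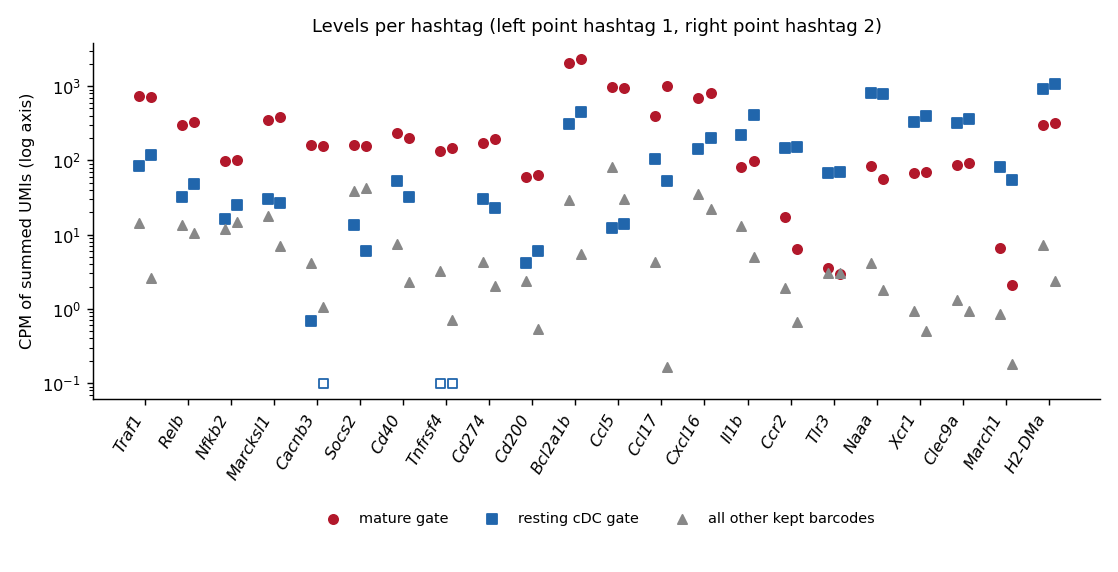
CPM of summed UMIs (log axis) of 22 genes in the mature gate (circles), the resting cDC gate (squares) and all kept barcodes below the MHC class II limit (triangles), with hashtag 1 left and hashtag 2 right for each gene, and open squares at the foot of the axis for genes without a UMI. Traf1 to Cxcl16 lie higher in mature cells of both hashtags and Il1b to H2-DMa lower, and Ccl17 of mature cells differs between the hashtags, at 394 and 1016 CPM.

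Genes for costimulation, the second signal that T cells need beside antigen, were mostly higher. Of 11 tested, 8 were higher and none was lower than in resting cDCs (median 1.73). Tnfrsf4, which encodes OX40 and is better known on T cells, was at 134 and 148 CPM in mature cells and had no UMI in either comparison group, which is at least 155-fold higher taking 3 UMIs over the resting group as the floor. Cd70, the ligand of CD27, was at 25.2 and 20.3 CPM and at least 24.5-fold higher on the same floor. DESeq2 called neither of these genes. Tnfrsf9 (4-1BB) had 90 UMIs against 1 in resting cDCs, a ratio of 73.4 (95% counting interval 12.8 to 2929). Cd40, the receptor through which helper T cells license dendritic cells, was at 236 and 198 CPM against 53.1 and 32.6 CPM (2.53, SE 0.162), and Tnfsf9, the ligand of 4-1BB, and Icosl, the ligand of ICOS, differed by 2.32 (SE 0.185) and 1.73 (SE 0.185).

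The classical B7 ligands of CD28 were divided. Cd80 was at 69.0 and 106 CPM against 24.5 and 51.9 CPM, a difference of 1.36 (SE 0.183). Cd86 was at 238 and 248 CPM against 231 and 293 CPM, and its difference of 0.06 (SE 0.139) did not pass the test. Cd83, often used as a maturation marker, was at 954 and 1274 CPM against 879 and 1232 CPM, so that resting cDCs already held most of its level (0.24, SE 0.132, edgeR adjusted p = 0.164).

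Genes that restrain T cells were higher together with those that stimulate them. Of 13 tested, 8 were higher and 1 was lower than in resting cDCs (median 1.55). Cd274, which encodes PD-L1, was at 170.4 and 196 CPM against 30.6 and 22.6 CPM, a difference of 2.96 (SE 0.178). Pdcd1lg2 (PD-L2) differed by 3.36 (SE 0.520) at a low level of 15 and 19.5 CPM, and Cd200, the ligand of an inhibitory receptor on myeloid and T cells, by 3.74 (SE 0.283). Socs2, a suppressor of cytokine signalling, was at 161 and 154 CPM against 13.6 and 6.07 CPM (4.20, SE 0.219), and Fas, the death receptor, differed by 3.31 (SE 0.271). Aldh1a2, which makes retinoic acid, differed by 1.96 (SE 0.231). Havcr2 (TIM-3), an inhibitory receptor that cDC1 carry, was the gene that was lower, at 16.8 and 17.4 CPM against 88.5 and 135 CPM (-2.57, SE 0.202). Ido1 was at 0.600 and 0.424 CPM in mature cells and was not tested.

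Genes of the survival and serpin list mostly followed the same direction. Of 12 tested, 11 were higher against either group (median 1.83 against resting cDCs). The list holds genes that act for and against cell death. Bcl2l11, which encodes the pro-apoptotic BIM, was among the higher ones, and Bcl2 was the 1 gene that did not pass the test. Gadd45b, a stress-induced NF-kB target, was at 1372 and 1557 CPM against 109.6 and 145 CPM, a difference of 3.69 (SE 0.153). Bcl2a1b, an anti-apoptotic BCL2 relative whose near-identical copies share reads with it, was at 2050.3 and 2325 CPM against 304 and 441 CPM (2.73, SE 0.146), and the level of that single copy is uncertain. Bcl2l14 differed by 2.93 (SE 0.172), Cflar, the inhibitor of caspase-8 that encodes c-FLIP, by 2.75 (SE 0.157) and Serpinb9, which protects against granzyme B, by 2.68 (SE 0.153).

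All 11 tested genes of the migration and cytoskeleton list were higher in both comparisons, with medians of 2.63 and 2.68. The list was chosen with earlier results of these data known, so this count may partly reflect the choice. It also holds the gate genes Ccr7 and Fscn1, which were not tested. Marcksl1, an actin-binding protein of the membrane, was at 349 and 387 CPM against 29.95 and 27.04 CPM (3.85, SE 0.170), and Basp1, another membrane-attached protein, at 1099.9 and 1249 CPM against 128 and 187 CPM (3.07, SE 0.150). Cacnb3, a subunit of voltage-gated calcium channels, had 632 UMIs in mature cells and 1 in resting cDCs, a ratio of 515 (95% counting interval 92.1 to 20377). Anxa3, an annexin, differed by 3.43 (SE 0.168), but was also at 297 CPM in the barcodes below the MHC class II limit, near its level of 292 and 307 CPM in mature cells. Myo1g and the adhesion molecule Icam1 differed by 2.63 (SE 0.154) and 1.00 (SE 0.147).

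Receptors that place cells in tissue moved the other way. All 7 tested genes were lower than in the broad group, and all 4 tested against resting cDCs were lower there, while DESeq2 called 1 in each comparison. Ccr2, which brings monocytes and dendritic cell precursors out of the blood, was at 17.4 and 6.36 CPM against 148 and 152 CPM (-3.59, SE 0.223). Gpr183, the oxysterol receptor EBI2, was at 15 and 18.2 CPM against 34.7 and 51.3 CPM (-1.23, SE 0.239). DESeq2 did not call Gpr183. Against the broad group, Ccr1 had 0 UMIs against 29, at least 10.5-fold lower. The smallest difference was that of Cxcr4, at 45.6 and 65.3 CPM against 65.3 and 102 CPM (-0.44, SE 0.170). Cxcr4 lost its call in most alternatives.

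Chemokines did not move as a group. Of 12 tested, 5 were higher and 2 lower than in resting cDCs (median 0.31), and 4 were higher and 4 lower than in the broad group (median -0.16). Ccl5, a ligand for receptors on effector T and NK cells, was at 976 and 953 CPM against 12.3 and 13.8 CPM (6.35, SE 0.196). Ccl17, a CCR4 ligand like Ccl22, was at 394 and 1016 CPM against 103 and 53.5 CPM (3.23, SE 0.217), and Cxcl16, the ligand of CXCR6 on liver-resident lymphocytes, at 688 and 805 CPM against 142 and 203 CPM (2.29, SE 0.144). The inflammatory chemokines Ccl3 and Ccl4 were lower, Ccl3 at 22.2 and 81.8 CPM against 127 and 152 CPM (-1.34, SE 0.186) and Ccl4 at 385 and 356 CPM against 802 and 775 CPM (-0.93, SE 0.134). DESeq2 did not call Ccl3 against resting cDCs. Cxcl9, the interferon-gamma-induced ligand of CXCR3, was at 861 and 699 CPM against 811 and 488 CPM (0.46, SE 0.134), a call that was lost at matched depth and turned to -0.86 when at least 4 of the 5 genes were required. Ccl19, the CCR7 ligand that mature dendritic cells make in lymph nodes, had no UMI in mature cells, and Cxcl10 did not pass the test.

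Among cytokines outside the gate, 5 of 9 tested were higher and 3 lower than in resting cDCs (median 1.41). Tnf was at 112 and 153 CPM against 44.2 and 66.8 CPM (1.41, SE 0.161). Il15ra, which presents IL-15 to NK and CD8 T cells, was at 21.6 and 23.7 CPM against 6.81 and 1.10 CPM (2.78, SE 0.417), and Il15 itself differed by 1.52 (SE 0.301). Il27 differed by 1.63 (SE 0.519) at 9.0 and 9.75 CPM, and DESeq2 called neither Il15 nor Il27. The IL-1 family was divided. Il1rn, the IL-1 receptor antagonist, was higher at 10.8 and 13.6 CPM against 3.40 and 6.07 CPM (1.48, SE 0.446), and did not pass the test against the broad group. DESeq2 did not call Il1rn against resting cDCs. Il1b was at 81.6 and 96.6 CPM against 217 and 407 CPM (-1.62, SE 0.153), Il18 at 16.8 and 13.1 CPM against 55.1 and 47.5 CPM (-1.62, SE 0.236), and Il1a had 3 UMIs against 94 in the broad group, a ratio of 34.0 (11.3 to 168).

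**Figure D3:**
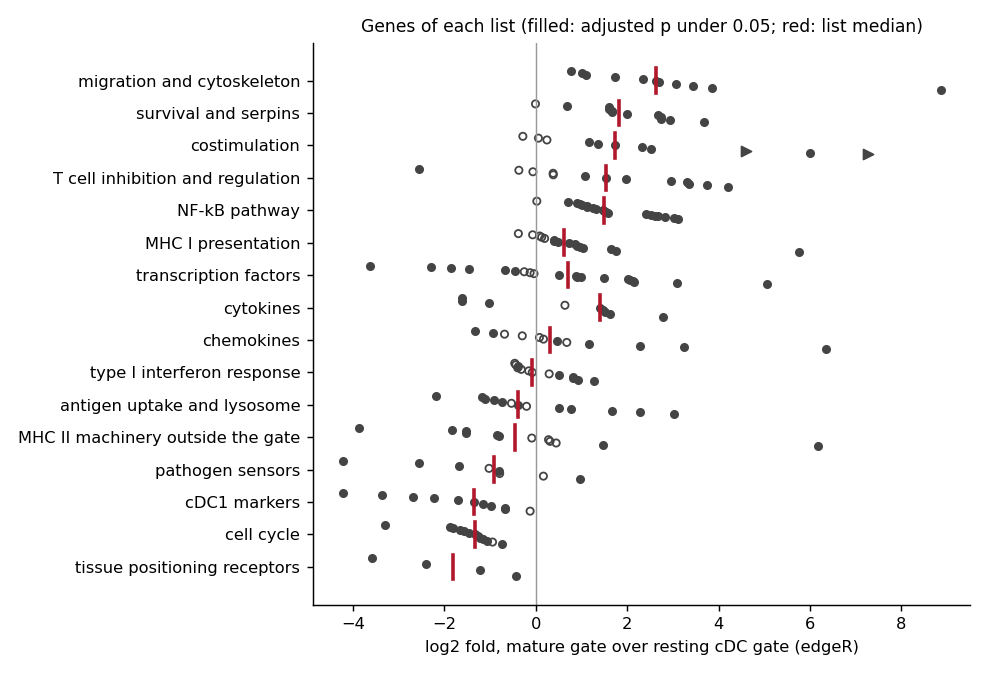
Log2 fold changes of mature cells over resting cDCs (edgeR) for each tested gene of 16 lists, 1 point per gene, filled where the adjusted p was under 0.05, with red bars at the list medians. The triangles in the costimulation row are Tnfrsf4 and Cd70, drawn at the lower bound of their fold because resting cDCs had no UMI of them. The medians run from 2.63 for migration and cytoskeleton to -1.82 for tissue positioning receptors. The lists were chosen with earlier results of these data known.

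The MHC class II genes themselves set the gate, but the machinery that loads and turns over MHC class II did not. Of 12 tested genes, 6 were lower and 2 higher than in resting cDCs (median -0.45). Ciita, the master transactivator of MHC class II genes, was at 42 and 46.6 CPM against 163 and 127 CPM (-1.53, SE 0.164). The peptide-exchange subunits H2-DMa, at 295 and 315 CPM against 905 and 1055 CPM (-1.52, SE 0.136), and H2-DMb1, at 145 and 145 CPM against 524 and 645 CPM (-1.85, SE 0.143), were both lower. March1, the ubiquitin ligase that removes MHC class II and CD86 from the surface of immature cells, was at 6.60 and 2.12 CPM against 82.4 and 54.6 CPM (-3.87, SE 0.296). Mreg (melanoregulin) was the reverse, at 80.4 and 86.5 CPM against 2.72 and 0 CPM (6.17, SE 0.366). The median share of UMIs from the 4 gate genes was 6.04% in mature cells and 6.06% in resting cDCs, which the limit of 1% bounds only from below.

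MHC class I genes were higher without exception among those called. Of 16 tested, 11 were higher and none lower than in resting cDCs (median 0.61), though 1 became lower when scaled by library size. B2m, the light chain of MHC class I, was at 4402 and 4302 CPM against 2485 and 2262 CPM (1.04, SE 0.140), and H2-K1 and H2-D1 differed by 0.97 (SE 0.134) and 0.73 (SE 0.135). Nlrc5, the class I transactivator, was at 60.004 and 52.1 CPM against 19.7 and 19.9 CPM (1.65, SE 0.218), and Psme2, a proteasome activator subunit, differed by 1.75 (SE 0.137). H2-M2, a class Ib gene, was at 58.8 and 67.0 CPM against 0.681 and 1.66 CPM (5.77, SE 0.375).

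Uptake and sensing genes were mixed to lower. Of 13 uptake and lysosome genes tested against resting cDCs, 6 were lower and 5 higher (median -0.40), and of 17 tested against the broad group 10 were lower and 4 higher (median -1.06). Cd209a (DC-SIGN), which was used to choose resting cDCs, had 0 UMIs against 73 in the broad group, at least 26.4-fold lower. Lyz2 (lysozyme) was at 161 and 191 CPM against 343 and 557 CPM (-1.17, SE 0.143), and the scavenger receptor Cd36 differed by -1.11 (SE 0.147). Ly75, the endocytic receptor DEC-205, was higher instead, at 156 and 161 CPM against 23.1 and 20.4 CPM (3.03, SE 0.183), and so was Axl, a receptor for apoptotic cells (2.28, SE 0.224). Of 8 pathogen sensors tested, 4 were lower and 1 higher, and DESeq2 called 2 lower and 0 higher. Tlr3, the endosomal receptor for double-stranded RNA, was at 3.6 and 2.97 CPM against 68.1 and 69.0 CPM (-4.23, SE 0.302), and Tlr11, the receptor for profilin, differed by -2.55 (SE 0.307). Myd88, the adaptor of most Toll-like receptors, differed by -0.80 (SE 0.298), a call that several alternatives lost.

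Type I interferon response genes mostly did not pass the test, with 5 of 13 higher and 1 lower (median -0.08), of which DESeq2 called 2 and 0. Usp18 was at 49.2 and 53.4 CPM against 32.7 and 16.6 CPM (1.28, SE 0.222), and Isg15 at 277 and 150.5 CPM against 208 and 80.02 CPM (0.81, SE 0.143). Against the broad group the split of this list turned from 4 higher and 1 lower to 3 higher and 5 lower when scaled by library size, so no direction is given for it. Genes of the cell cycle were lower in 12 of 13 tested (median -1.32), of which DESeq2 called 3, and in 13 of 14 against the broad group, of which DESeq2 called 4. Rrm2, a subunit of ribonucleotide reductase, was at 1.80 and 1.27 CPM against 23.1 and 12.7 CPM (-3.29, SE 0.527), and Stmn1 (stathmin) at 40.8 and 44.9 CPM against 129 and 104 CPM (-1.26, SE 0.169). Top2a was at 9.60 and 9.75 CPM against 26.5 and 36.4 CPM (-1.57, SE 0.290), which DESeq2 did not call.

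Transcription factors split into 11 higher and 6 lower of 20 tested (median 0.70). Stat4 had 120 UMIs in mature cells against 3 in resting cDCs, a ratio of 32.6 (10.9 to 160). Stat5a, which transmits GM-CSF and other cytokine signals, was at 84.6 and 109.8 CPM against 10.9 and 14.3 CPM (3.09, SE 0.216), Nr4a3, an orphan nuclear receptor needed for CCR7-dependent migration, at 354 and 441 CPM against 81.0 and 123 CPM (2.13, SE 0.148), and Etv3 at 496 and 665 CPM against 118 and 208 CPM (2.02, SE 0.146). Irf8, which cDC1 need for their identity, was at 928 and 783 CPM against 1468 and 1578 CPM (-0.68, SE 0.136). Ahr, the aryl hydrocarbon receptor, and Klf4 differed by -1.47 (SE 0.144) and -1.85 (SE 0.192). Batf3, the other lineage factor of cDC1, was at 164 and 164 CPM against 202 and 198 CPM, and the difference of -0.13 (SE 0.138, edgeR adjusted p = 0.545) did not pass the test.

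The origin of the mature cells among cDC classes was looked at through markers of each. Of 11 cDC1 markers tested against resting cDCs, 10 were lower and none was higher (median -1.35), with Batf3 the exception. Naaa, a lysosomal amidase of cDC1, was at 84.6 and 55.9 CPM against 808 and 782 CPM (-3.37, SE 0.159), and Rab7b at 39.0 and 30.5 CPM against 200.1 and 294 CPM (-2.69, SE 0.174). Xcr1 and Clec9a were used to choose resting cDCs and were tested only against the broad group, where Xcr1 was at 67.8 and 69.5 CPM against 304 and 356 CPM (-2.06, SE 0.121) and Clec9a at 85.8 and 92.4 CPM against 292 and 328 CPM (-1.59, SE 0.115). The cDC1 list summed to 1920 CPM in mature cells, 5372 in resting cDCs and 173 in the barcodes below the MHC class II limit, and the cDC2 list to 116, 208 and 93.9 CPM. Xcr1 and Clec9a of the first list and Cd209a and Clec10a of the second chose the resting cDCs, so the sums there were partly set by that choice. Irf8, given above, made up a large part of the cDC1 sum of mature cells. The tested cDC2 genes did not follow the sum of their list. Against resting cDCs, 4 of 6 were higher, namely Sirpa, Irf4, Ltb and Tnfrsf11a, and Klf4 was lower (median 1.86), of which DESeq2 called 1 in each direction. Against the broad group, 1 of 8 was higher and 3 were lower (median -0.41). Irf4, a factor of cDC2 that mature cells also use, was at 8.40 and 13.6 CPM against 2.04 and 3.31 CPM (2.15, SE 0.521), and Tnfrsf11a, the receptor RANK, at 31.2 and 38.6 CPM against 7.49 and 8.28 CPM (2.29, SE 0.295).

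Barcode by barcode, thinned to 2000 UMIs, 178 of 385 mature cells (46.2%, 95% exact binomial interval 41.2 to 51.4) had a UMI of a 7-gene cDC1 panel and none of a 9-gene cDC2 panel. Only 11 (2.86%, 1.43 to 5.05) had cDC2 genes alone, 6 had both and 190 (49.4%) had neither. Of 322 resting cDCs, 288 (89.4%) had cDC1 genes alone and 9 (2.80%) cDC2 genes alone. Mature cells with neither can therefore not be placed in a class at this depth. Resting cDCs were chosen with Xcr1, Clec9a, Cd209a and Clec10a among the markers, so their shares may partly be set by that choice. How often a cell of each class shows a gene of its panel at 2000 UMIs was not measured. The shares therefore do not give the origin of the mature cells.

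Outside the lists, the genes with the largest differences were Nudt17 and Lad1. Nudt17, a nudix hydrolase, was at 193 and 189.9 CPM in mature cells and Lad1 (ladinin) at 112 and 129.7 CPM, and neither had a UMI in either comparison group, which is at least 209-fold and 134-fold higher than resting cDCs on the floor of 3 UMIs. DESeq2 called neither. Glipr2, at 383 and 349 CPM against 2.72 and 4.41 CPM (6.77, SE 0.237), and Zmynd15, at 163 and 229.7 CPM against 5.45 and 2.21 CPM (5.88, SE 0.255), followed, then Tspan3 (5.05, SE 0.195) and H2-Eb2, an MHC class II gene that the gate did not use (4.30, SE 0.250). Tmem123, at 507 and 510.3 CPM against 26.5 and 32.6 CPM, differed by 4.25 (SE 0.173).

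Among the genes that were lower, Unc119, a lipid-binding chaperone, was at 15.6 and 11.02 CPM against 142 and 136 CPM (-3.25, SE 0.203), Tm6sf1 at 22.2 and 17.0 CPM against 179 and 172 CPM (-3.02, SE 0.183) and Zfp36l2, which destabilises AU-rich mRNAs, at 42 and 17.4 CPM against 263 and 201 CPM (-2.88, SE 0.178). Alox5ap, which is needed for leukotriene synthesis, was at 73.2 and 65.3 CPM against 402 and 454 CPM (-2.47, SE 0.152), and the ribonuclease Rnase6 at 46.8 and 39.8 CPM against 334 and 308 CPM (-2.73, SE 0.156). Igkc, the kappa light chain of B cells, led the genes lower than the broad group at 1.2 and 0.848 CPM against 391 and 274 CPM, and the resting cDCs of hashtags 1 and 2 had no UMI of it.

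The genes did not all change in step with the number of gate genes per barcode. Pooled over hashtags, these values describe the same cells that the gate divides and were not tested. From 0 to 5 genes, Traf1 went from 74.7 over 164, 392, 432 and 788 to 918 CPM and Relb from 25.4 over 71.2, 116, 154 and 336 to 409.9 CPM, while Naaa went from 787 over 606, 379, 155 and 35.7 to 17.7 CPM. H2-DMa stood at 952, 895 and 911 CPM up to 2 genes and then at 572, 204 and 145 CPM. Cxcl9 was highest in the middle, at 319, 1185, 1714, 1783, 379 and 254 CPM. Ccl17 was highest at 4 genes, at 10.5, 184, 401, 749, 1009 and 421 CPM. That peak was of hashtag 2, at 1410 CPM, while hashtag 1 stayed between 351 and 405 CPM from 1 gene on. Ccl5 stayed at or below 125 CPM up to 3 genes and reached 905 CPM at 4 and 1743 CPM at 5. Cd86 was at 379 CPM with 2 genes and 128 CPM with 5, and Batf3 at 195 CPM with none, 121 CPM with 3 and 216 CPM with 5. Median depth ranged from 9376 to 10579.5 UMIs over the 6 steps.

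**Figure D4:**
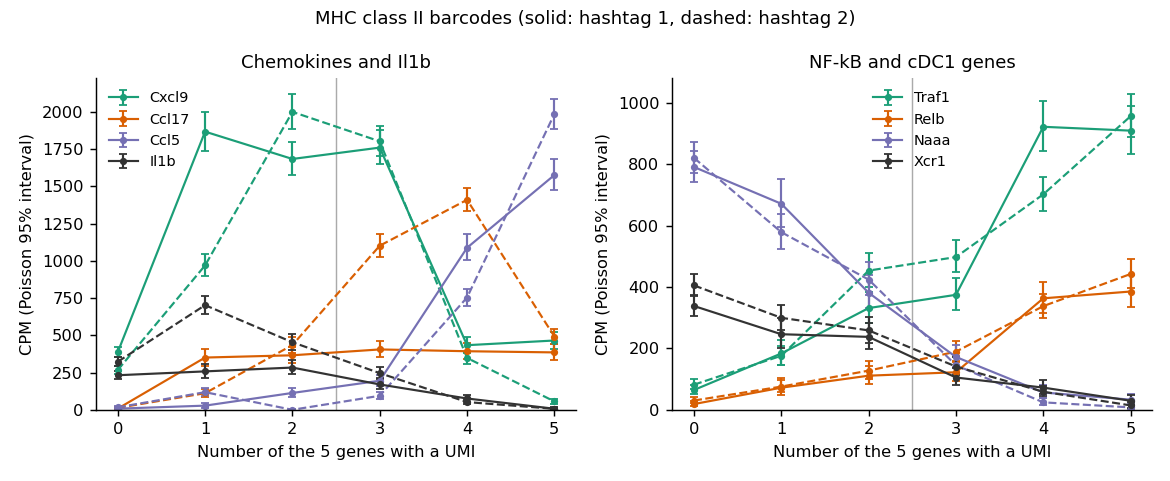
CPM (with 95% Poisson intervals) against the number of the 5 gate genes with a UMI, for MHC class II barcodes within the Cd79 limit, of hashtag 1 (solid) and hashtag 2 (dashed), with the lower limit of the gate as a grey line. Cxcl9 falls and Ccl5 climbs between 3 and 5 genes in both hashtags, and Ccl17 peaks at 4 genes in hashtag 2 and is nearly level from 1 gene on in hashtag 1.

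Because Fscn1 was the gate gene missing from most mature cells, they were divided by a Fscn1 UMI, with 58 cells with and 83 without in hashtag 1 and 97 and 130 in hashtag 2. Median depths were 9772.5 with and 9998 UMIs without Fscn1 in hashtag 1, and 8713 and 10101 in hashtag 2. This division is another reading of the same cells and got no test. Ccl5 was at 1649 CPM with and 543 CPM without Fscn1 in hashtag 1, and at 2421 and 115 CPM in hashtag 2. Tnfrsf4 was at 239 and 66.1 CPM, then 333 and 41.9 CPM, and Stat4 at 58.2 and 6.90 CPM, then 80.5 and 3.99 CPM. All of these were higher with Fscn1 in both mice. Vim (vimentin), a gene outside the lists that was picked after its values were seen, was at 981 and 345 CPM, then 1245 and 404 CPM.

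The opposite side held Cxcl9, at 550.3 CPM with and 1061 CPM without Fscn1 in hashtag 1 and at 140.0 and 1018 CPM in hashtag 2. Il1b was at 15.3 and 124 CPM, then 7.0 and 148 CPM, and Ccl4 at 79.7 and 581 CPM, then 114 and 494 CPM. The cDC1 gene Xcr1 was at 29.1 and 92.7 CPM, then 19.8 and 97.9 CPM. These genes were all lower with Fscn1 in both mice. The gate genes Il12b, at 1703 and 1478 CPM, then 2228 and 1483 CPM, and Ccl22, at 1018 and 1079 CPM, then 1450.4 and 1696 CPM, were found on either side. A mature cell without Fscn1 had to have at least 3 of the remaining gate genes, so their presence there was set by the gate.

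In single cells thinned to 2000 UMIs, Ccl5 was found in 62 of 105 mature cells with Fscn1 (59.0%) and in 54 of 280 without (19.3%). It was found in 16 of 113 with Cxcl9 (14.2%) against 100 of 272 without (36.8%), and in 10 of 103 with Ccl17 (9.71%) against 106 of 282 without (37.6%). Ccl22 was found in 92.2% of cells with Ccl17 and in 62.1% of those without. The share of cells with Ccl5 was larger with Fscn1 and smaller with Cxcl9 or Ccl17 in each of hashtags 1 and 2.

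**Figure D5:**
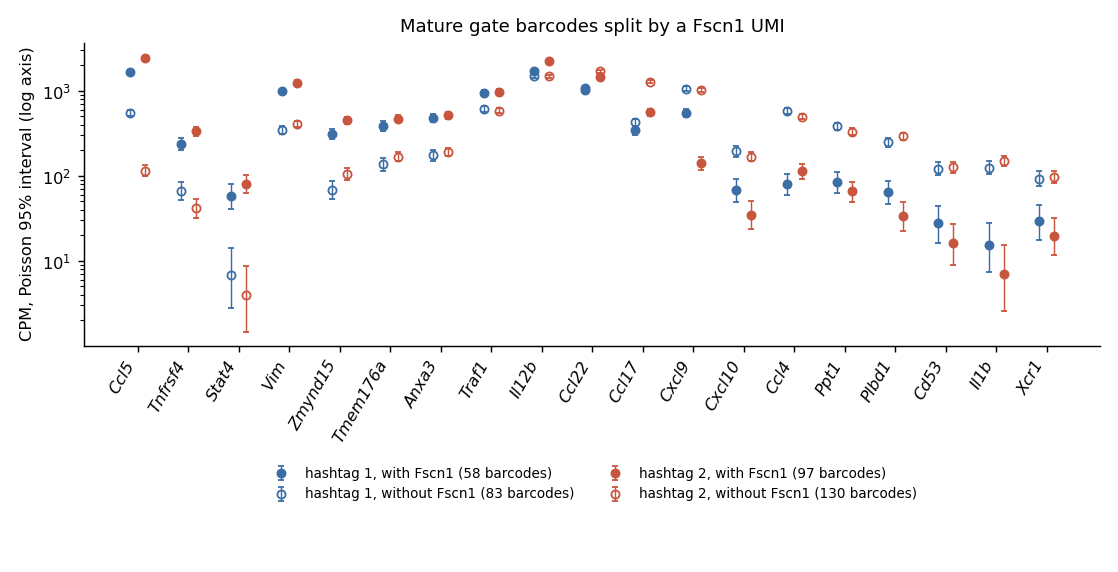
CPM (log axis, 95% Poisson intervals) of 19 genes in mature cells with (filled) and without (open) a Fscn1 UMI, for hashtag 1 (blue) and hashtag 2 (red). Ccl5 to Traf1 lie higher with Fscn1 and Cxcl9 to Xcr1 lower in both mice. Il12b also lies higher with Fscn1 in both, and Ccl22 and Ccl17 lie lower, with overlapping intervals in hashtag 1.

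The mature cells were unevenly divided among the mice. They were 141 of 830 kept barcodes of hashtag 1 (17.0%, 95% exact binomial interval 14.5 to 19.7), 227 of 1970 of hashtag 2 (11.5%, 10.1 to 13.0) and 6 of 985 of hashtag 3 (0.609%, 0.224 to 1.32). Most kept barcodes (6263) were called for no hashtag and held 1 mature cell, so these shares depend on the calling. With a fixed rule on hashtag UMIs they became 7.33%, 22.0% and 1.21%, which turns the order of hashtags 1 and 2. Of MHC class II barcodes the mature share was 39.2% in hashtag 1, 44.7% in hashtag 2 and 10.7% (6 of 56, 4.03 to 21.9) in hashtag 3, and 37.96%, 44.5% and 13.7% with the fixed rule. Hashtag 3 is a G12V mouse by the deposited sheet and the D38A mouse by the methods, and genotype was not tested in either reading, each of which has 1 D38A mouse.

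Gene levels of mature cells were set side by side between mice for the 1377 genes with at least 100 CPM in 1 hashtag. A gene could enter through the 1 mouse where it was high, so the counts below are partly set by this limit. Sult2a2, for example, entered at 101 CPM in hashtag 1, with 14.4 and 0 CPM in hashtags 2 and 3. If the deposited sheet is right, each G12V mouse lay at least 2-fold above the D38A mouse in 0 genes (0.00%) and at least 2-fold below it in 43 (3.12%), led by Sult2a2, Hspb1, Fabp1, Hsph1 and Phlda1. Of these 43, 39 were higher in the barcodes below the MHC class II limit than in mature cells, among them the hepatocyte gene Fabp1, at 3019 CPM in hashtag 1, 757 in hashtag 2, 785 in hashtag 3 and 6019.9 in the other barcodes. Whether this RNA came from hepatocytes was not tested. By the pairing of the methods, 152 genes (11.0%) were higher and 105 (7.63%) lower, which became 68 and 50 with a pseudocount of 50 CPM in place of 10, and 91 and 80 with the fixed hashtag rule. The 5 genes that led the higher ones, Ccl17, Ccl4, Tmem234, Eif1ax and Tnfsf9, had no UMI in the 6 cells of hashtag 3, whose sum is 54781 UMIs. Those 6 cells had 2428 CPM of Ccr7, 3614 of Ccl5 and 3213 of Cxcl9. Their Traf1 level was 785 CPM, beside 746 CPM in hashtag 1 and 722 in hashtag 2. Isg15, among the genes that led the lower ones, was at 1661 CPM in hashtag 3 against 277 and 150.5 CPM. Wdr90, Cybb and F11, also among the genes that led the lower ones, reached 100 CPM only in hashtag 3, through 6, 7 and 7 UMIs. Between hashtags 1 and 2, 4 genes were at least 2-fold higher in hashtag 2, namely Sprr1a, S100a6, Cxcl2 and Ccl17, and 53 were lower. Of the 445 Sprr1a UMIs in mature cells, 316 lay in 2 barcodes of 74042 and 41556 UMIs, with MHC class II shares of 1.02% and 1.49%.

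Hepatocyte transcripts were found in the mature cells. Alb made up 0.351% of their UMIs, 0.260% of those of resting cDCs and 2.60% of those of the barcodes below the MHC class II limit. The hepatocyte list summed to 12980.2 and 8419 CPM in mature cells of hashtags 1 and 2 and to 10952 and 6301 CPM in resting cDCs, and 6 of its 10 genes were called higher in mature cells, such as Ttr (0.83, SE 0.141) and Fgb (0.73, SE 0.135). Fgb turned to -0.38 and Ttr lost its call when at least 4 of the 5 genes were required. Of the 391 mature cells, 25 had over 20000 UMIs and held 20.6% of all their UMIs, with a median MHC class II share of 1.55% and 3.87% of UMIs from the hepatocyte list against 0.610% in the other 366. Within them, 2 barcodes of 74042 and 41556 UMIs carried 831 of the 1281 Nras UMIs, a row that also takes up construct reads, and 35 of the 47 mVenus UMIs. An mVenus UMI was found in 14 mature cells (3.58%) and in 14.3% of the barcodes below the MHC class II limit, although all cells had been sorted as mVenus-positive. The part of these deep barcodes in the gene counts was measured by leaving barcodes over 20000 UMIs out of both gates, after which 2908 genes were called against the broad group and 2781 against resting cDCs.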

How the data were processed

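Gene and hashtag counts are UMI counts per barcode as deposited by the authors, who aligned reads to mm10 with Cell Ranger (2.1.1 per the labels, 3.0.2 per the file headers) and counted tags with CITE-seq-Count, allowing no mismatch. All mice were pooled in 1 run. Hashtags were called with HTODemux (Seurat 5.3.0, positive quantile 0.99), so 2 cells of 1 mouse in a droplet were not found. Doublets between mice were left out of tests. UMIs were summed per hashtag and gate where each gate had at least 10 barcodes, giving 1469021 to 2359267 UMIs a sum, and tested with edgeR 4.0.16 (R 4.3.3), with filterByExpr, TMM, the mouse as a block and Benjamini-Hochberg adjustment over all tested genes at 0.05. Pairing comes from the mouse: deviations of the gates of 1 mouse correlated at 0.461 and 0.494 over 2 pairs. Gate genes, mVenus and Nras were not tested. DESeq2 1.42.0 was an alternative. Scripts were tested on simulated data. Counts were thinned at random with a fixed seed. Differences between mice used log2(CPM + 10). Members, lists and comparisons were chosen with earlier results of these data known. Genes were named by a rule: list genes, led by up to 4 called genes with the largest change per list, and outside the lists the 12 largest rises and 12 largest falls (6 and 6 against resting cDCs) at 100 CPM or more in the higher gate. Mice, not cells, were the replicates.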

Additional observations from a re-analysis of the deposited data

How the results depend on the processing

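The numbers of genes called, 2689 against the broad group and 2549 against resting cDCs, stayed within 1.5 times under a filter on low counts left out, the fixed hashtag rule, stricter limits on the 5 genes, MHC class II and mitochondrial UMIs, matched depth, B cells left out, library size scaling, barcodes under 20000 UMIs and hashtag 3 added, the last 3 chosen after seeing the data. DESeq2 called 880 and 846 genes. With no replicate block, 1514 and 1318 genes were called. With hashtag 3 added and 1 of the other hashtags left out, 385 to 554 genes were called against the broad group and 357 to 490 against resting cDCs (without hashtag 1: 554 and 490, without hashtag 2: 385 and 357), where hashtag 3 holds 6 mature cells. Leaving out hashtag 1 or 2 with no hashtag 3 leaves no residual degrees of freedom and gave no test.

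Of 3937 repeats for the named genes over 257 pairs of gene and comparison, 3680 were counted as kept, 247 lost the call, 4 gained it and 6 turned. The 3937 include, for each pair, the ratios within hashtag 1 alone and within hashtag 2 alone. These ratios have no test and were counted as kept by direction alone, or if the main test made no call. Those that turned were Cxcl9 to -0.81 and -0.86 and Fgb to -0.31 and -0.38 (broad group, resting cDCs) with at least 4 of the 5 genes, and Cxcr4 against resting cDCs to 0.14 and 0.30 with hashtag 3 added and hashtag 1 or 2 left out. Of the 247 lost calls, 46 were lost in DESeq2, 33 in the fit with no block, and 64 and 70 in the fits without hashtag 1 or 2. The cause was not tested.

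The gate held 282 cells with at least 4 of the 5 genes, 349 at 2% MHC class II and 205 after thinning to 1000 UMIs. The fixed hashtag rule moved the share of mature cells to 7.33% in hashtag 1 and 22.0% in hashtag 2. The pairing of the methods moved the share of the D38A mouse from 17.0% to 0.609% and the genes differing between mice from 43 to 257, where the fixed rule and a pseudocount of 50 CPM each gave 23 by the deposited pairing and 171 and 118 by that of the methods. Thinning to 1000 UMIs instead of 2000 moved Fscn1 from 27.3% to 21.7% of mature cells and Xcr1 from 12.5% to 7.16%. Depth limits the low genes: a gene with no UMI in 391 cells may have a UMI in up to 0.767% of such cells.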
